A study of Homo sapiens with 18 samples.

Results

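SCC-9 is an established head and neck squamous cell carcinoma line from a primary tumor of the tongue. The comparison described here is that of SCC-9 cells given hepatocyte growth factor (HGF) with SCC-9 cells left untreated, measured by mRNA sequencing. It takes 6 of the 18 libraries of the series, chosen by cell line and treatment in the sample labels. There were 3 untreated controls and 3 libraries of cells treated with 50 ng/ml HGF, numbered 1 to 3 in each group. All 6 came from cells grown in DMEM F12 with HEPES and hydrocortisone, a glucocorticoid that the controls therefore received too, whereas Detroit 562 and FaDu were grown in MEM-α, for which no hydrocortisone is stated. According to the sample labels the cells were treated for 16 h, while a longer time stands in the series record. SCC-9 is a single line, and the p-values below measure the spread between repeats of the experiment, not between tumors. That spread was estimated over all 18 libraries, those of Detroit 562 and FaDu included, and not in SCC-9 alone.

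HGF is the ligand of MET, a receptor tyrosine kinase of epithelial cells. Ligand binding activates the RAS-ERK and PI3K-AKT pathways, and MET is known for driving scattering, migration and invasion of carcinoma cells. ERK signaling induces its own brakes, among them the dual-specificity phosphatases and the Sprouty proteins, and transcription factors of the PEA3 family. The interferon response runs through STAT and IRF factors, which induce antiviral genes, guanylate-binding proteins and the chemokines that attract T cells.

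Total counts on genes lay between 37644764 and 40532052 in the 6 SCC-9 libraries, and 1.65% to 2.43% of counts were mitochondrial. All 9 epithelial markers checked (keratins, TP63, CDH1, EPCAM and others) passed the filter on low counts, and none of them was called. So did 4 of 7 fibroblast, 4 of 5 endothelial and 3 of 6 leukocyte markers, also without a call. The filter took all 18 libraries of the 3 lines, so passing it does not give a marker's level in SCC-9. The pan-leukocyte marker PTPRC had at most 3 counts, CD3E at most 4 and the fibroblast marker LUM at most 2 counts in any SCC-9 library. Counts were scaled by edgeR's TMM factors to the mean library size, and these are called normalized read counts. The receptor MET stood at 12407, 11296 and 11088 normalized read counts in controls 1 to 3 and at 12063, 10520 and 10549 in the HGF libraries 1 to 3. The groups overlapped, and the fitted log2 fold change of -0.07 ± 0.051 (SE, n = 3 pairs) did not pass (adjusted p = 0.554). The ligand was added as protein: the HGF transcript had 1, 2 and 0 raw counts in the controls and 1, 1 and 0 in the HGF libraries.

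HGF library 3 held raised levels of genes that are high in FaDu, a hypopharyngeal line sequenced in the same series. The 27 genes with at least 20 CPM in FaDu and at least 100 times the level of the SCC-9 controls summed to 1.85% of their FaDu level in HGF library 3, against 0.281% to 0.458% in the other SCC-9 libraries. The controls are low here by the rule that chose the genes. HGF libraries 1 and 2, which the rule did not compare with FaDu, stood at 0.281% and 0.316%. Fewer FaDu cells with full levels and a low level in many cells cannot be told apart in bulk RNA. The 68 genes chosen in the same way for Detroit 562 summed to 0.347% of their level in HGF library 3 and to 0.145% to 0.228% elsewhere. These sets share 13 genes. The 14 genes of the FaDu set alone stood at 2.11% in HGF library 3 against 0.337% to 0.618%, and the 55 of the Detroit 562 set alone at 0.253% against 0.183% to 0.281%. PRAME, LDOC1 and MAP9, chosen after their values were seen, had 0 counts in the other 5 libraries and 26, 19 and 9 raw counts in HGF library 3. The cancer-testis gene MAGEA4, also chosen afterwards, stood at 0.959, 4.76 and 17.4 normalized read counts in the controls and at 0.958, 0 and 173 in the HGF libraries. The excess of the 27 genes in HGF library 3 over the mean of the other 5 libraries was 1.49% of their FaDu level. That percentage of a gene's FaDu level is called its FaDu share. The 4 genes above are among 37 called genes (12 up, 25 down) whose FaDu share exceeds 10% of their reads in HGF library 3, so results are also given without the libraries numbered 3.

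**Figure D1:**
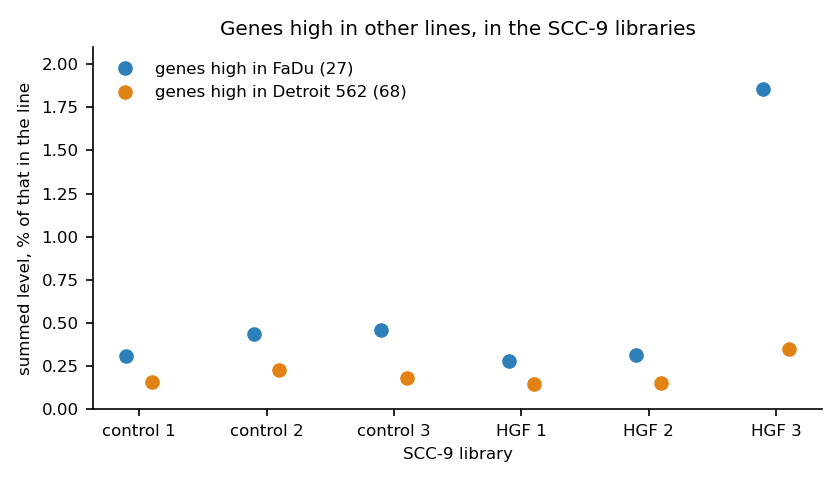
Summed level of genes high in FaDu (27 genes, blue) and in Detroit 562 (68 genes, orange; 13 are in both sets) in each SCC-9 library, as a percentage of their level in that line. The FaDu value of 1.85% in HGF library 3 stands above the other 5 libraries, which lie between 0.281% and 0.458%.

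HGF changed few genes in SCC-9, and most of them fell. Of 15475 genes tested, 305 (1.97%) reached an adjusted p under 0.1 together with a change of 0.4 or more on the log2 scale in edgeR's quasi-likelihood test with same-numbered libraries as pairs. Of these, 87 rose (0.562%) and 218 fell (1.41%). The changes were small: the median log2 fold change was 0.60 among the rising and -0.61 among the falling genes, and only 44 (16 up, 28 down) reached an absolute value of 1. The pairing decides these calls. Without it none of the 15475 genes was called by edgeR, and 641 had an unadjusted p below 0.05, whereas DESeq2 with a fold change prior and no pairing called 19.

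The repeats of the experiment started from different levels. Control 3 lay above control 1 in 192 of the 218 falling genes and below it in 68 of the 87 rising genes, against 50.0% of all genes lying below. Of the called genes, 294 moved the same way in all 3 pairs. The 11 exceptions all rose. The HGF libraries lay wholly above the controls in 56 of the 87 rising genes and wholly below in 157 of the 218 falling genes, which compares with 8.3% and 9.12% of all genes tested. The called genes were chosen on the same values, so these counts describe them only.

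Many of the calls rested on pair 3. Leaving out both libraries numbered 3 left 64 genes called (14 up, 50 down), all of them among the 305, against 201 without the libraries numbered 1 and 253 without those numbered 2. Without the libraries numbered 3, 296 of the 305 kept their sign. SYK, SLFN11, TFPI2, MGST1, MAGEA4 and SPG20 changed sign (6 genes, chosen for that after their values were seen), and PRAME, LDOC1 and MAP9 had no counts left. Of the 94 called genes named here, 24 stayed called without those libraries: GRAMD1B, SPRY4, ANGPTL4, CSF3, PDCD1LG2, PTGS2, TGFA and KCNAB1 among the rising, and FBXO32, CXCL10, CXCL11, APOL1, APOL3, BMF, OLR1, GBP1, GBP2, GBP4, TNFAIP2, BIRC3, CFB, CYP1B1, MMP7 and ID2 among the falling genes. The calls of all others named were lost. Of the 16 genes that rose by 1 or more on the log2 scale, 12 had a FaDu share over 10% of their reads in HGF library 3. The remaining 4 were PRSS3, NTSR1, ESM1 and KCNAB1, chosen here after their values were seen. PRSS3, a trypsinogen, stood at 15.3, 13.3 and 15.3 normalized read counts in the controls and at 28.7, 28.4 and 43.3 in the HGF libraries. ESM1, an endothelial proteoglycan also made by carcinoma cells, stood at 25.9, 12.4 and 4.09 against 66.1, 23.7 and 42.3. KCNAB1, a subunit of voltage-gated potassium channels, stood at 1.92, 2.86 and 10.2 against 10.5, 18.9 and 27.6, and the neurotensin receptor NTSR1 at 13.4, 8.58 and 5.11 against 29.7, 19.9 and 25.6. The groups overlapped in ESM1 and not in PRSS3, KCNAB1 or NTSR1. Without the libraries numbered 3, KCNAB1 stayed called (2.56, adjusted p = 0.0929), whereas the adjusted p was 0.28 for PRSS3, 0.15 for ESM1 and 0.58 for NTSR1. Subtracting the estimated FaDu reads from HGF library 3 gave 305 calls again (79 up, 226 down), of which 289 were shared.

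Among genes with a mean of at least 50 normalized read counts that moved the same way in all 3 pairs, NAV3 rose most. NAV3 encodes a microtubule-binding protein, and it stood at 285, 209.6 and 178 normalized read counts in the controls and at 509.8, 353 and 420.4 in the HGF libraries. HGF raised it by 0.93 ± 0.16 on the log2 scale (SE, n = 3 pairs, adjusted p = 0.00531), and the groups did not overlap. Without the libraries numbered 3 the adjusted p was 0.101. GRAMD1B, a carrier of cholesterol between membranes, stood at 1913, 1930.4 and 1330.5 in the controls and at 3457, 3432 and 2631 in the HGF libraries. Its log2 fold change of 0.89 ± 0.072 had the lowest adjusted p of the 12 genes with the greatest rise (8.95e-05), and it passed without the libraries numbered 3 (0.84, adjusted p = 0.0053). The receptor-type phosphatase PTPRZ1 lay at 201, 186 and 178 in the controls and at 328, 327 and 352 with HGF. Its controls and its HGF libraries were each close together, with a log2 fold change of 0.83 ± 0.15 (adjusted p = 0.00848, and 0.136 without the libraries numbered 3).

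The other genes in this group of 12 were GPR3, SPRY4, ANGPTL4, DGKG, NLRP3, IL24, ETV1, CSF3 and PDCD1LG2, with log2 fold changes of 0.72 to 0.89. ANGPTL4, an inhibitor of lipoprotein lipase and itself a glucocorticoid-responsive gene, stood at 1523, 1222 and 800.1 in the controls and at 2527, 1874 and 1841 in the HGF libraries. The groups did not overlap (log2 fold change 0.84 ± 0.12, adjusted p = 0.00251). NLRP3, the sensor of an inflammasome, lay at 594, 509 and 342 against 977, 694 and 774, also without overlap (0.77 ± 0.13, adjusted p = 0.00531, and 0.139 without the libraries numbered 3). DGKG, a diacylglycerol kinase, overlaps ETV5 on the same strand, and a read there was counted for both genes. Its values were 81.5, 54.3 and 52.1 against 136, 109 and 89.6, and it was not called without the libraries numbered 3 (adjusted p = 0.32).

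**Figure D2:**
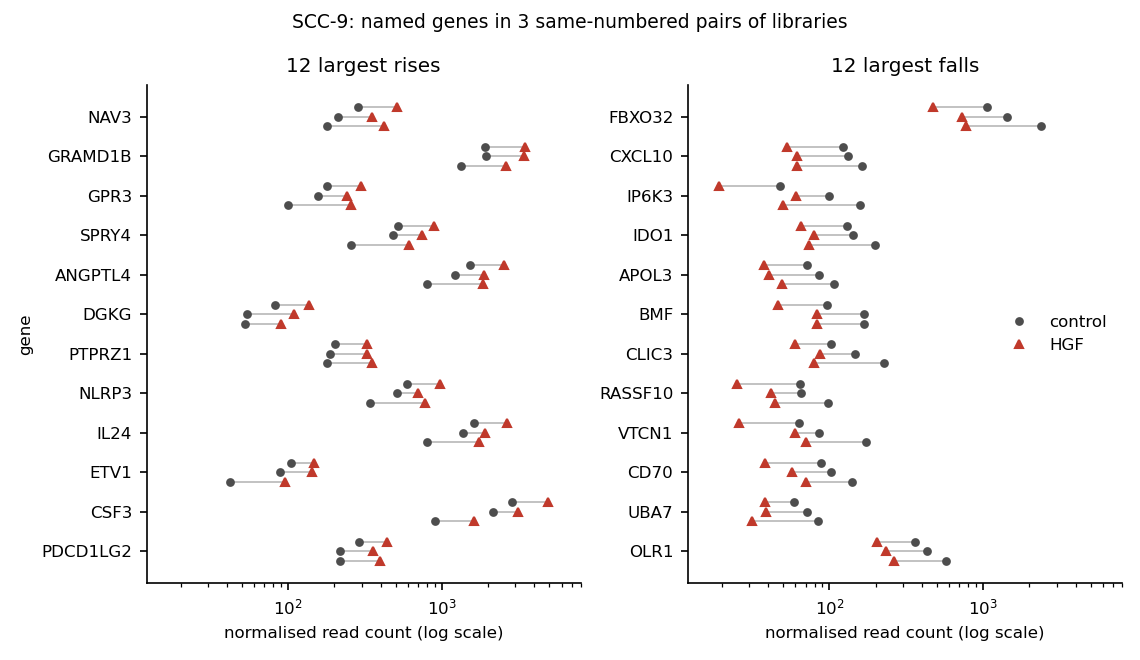
Normalized read counts (log scale) of the 12 genes with the greatest rise and the 12 with the greatest fall. Grey circles are controls and red triangles HGF libraries, and each line joins a same-numbered pair, number 1 on top. Every line points the same way within a gene, and the pairs of a gene start from different levels.

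Feedback genes of the ERK pathway were among those that rose in SCC-9. Of the 34 genes of the list tested, 10 rose, 1 fell and 23 did not pass, with a median log2 fold change of 0.25 against 0.0016 over all genes. The rising members are 29.4% of the list, and 0.562% of all genes rose. The falling member is 2.94% of the list, against 1.41% of all genes. The dual-specificity phosphatases DUSP4, DUSP5 and DUSP6, which switch off ERK and its relatives, all rose. DUSP4 stood at 3670.3, 2986 and 2438 normalized read counts in the controls and at 5670.3, 4175 and 4525 in the HGF libraries (log2 fold change 0.67 ± 0.11, adjusted p = 0.00399). DUSP6, which is selective for ERK, stood at 2394, 2301 and 2042 against 3228, 2989.5 and 3137 (0.48 ± 0.087, adjusted p = 0.00766). In both genes every HGF library was above every control. SPRY4, a Sprouty inhibitor of receptor tyrosine kinase signaling, moved from 515, 479 and 254 to 893, 747 and 614 (0.88 ± 0.14, adjusted p = 0.00314). Without the libraries numbered 3 it stayed called at 0.72 (adjusted p = 0.076), the only member of the list that did. Its relative SPRY2 was at 0.26 ± 0.082 (adjusted p = 0.121) and did not pass.

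All 3 PEA3-family factors, which are transcription factors induced by ERK, rose. ETV5 stood at 1289.9, 994 and 706 in the controls and at 1886, 1568 and 1347 in the HGF libraries (log2 fold change 0.71 ± 0.12, adjusted p = 0.00531), without overlap. ETV4 rose by 0.51 ± 0.14 (adjusted p = 0.0702) and ETV1 by 0.73 ± 0.18 (adjusted p = 0.0365), and the groups overlapped for ETV1 alone. PHLDA1 and PHLDA2, proteins with a pleckstrin homology-like domain, rose by 0.53 ± 0.13 (adjusted p = 0.0338) and 0.51 ± 0.094 (adjusted p = 0.00834). SPRED3, a Sprouty-related inhibitor, had few reads, with 29.7, 38.1 and 21.5 normalized read counts against 49.8, 53 and 49.2 (adjusted p = 0.0944).

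Of the immediate-early genes of the same list, EGR3 was called. EGR3, a zinc-finger factor, fell from 58.5, 109.6 and 119 to 39.3, 74.8 and 63 (log2 fold change -0.69 ± 0.19, adjusted p = 0.0614), with overlapping groups but a lower HGF library in each pair. FOS stood at 1354, 1279 and 2729 in the controls and at 941, 1137 and 1906 in the HGF libraries (-0.41 ± 0.15, adjusted p = 0.193). EGR1 was at -0.36 ± 0.12 (adjusted p = 0.115), and FOSL1, the AP-1 member that accumulates under lasting ERK activity, was at 0.47 ± 0.14 (adjusted p = 0.104). Neither FOS, EGR1 nor FOSL1 passed. Among 14 AP-1 dimer partners tested, JDP2 was the only one called (7.14% called down, against 1.41% of all genes). This repressor of AP-1 stood at 366, 379 and 389 in the controls and at 239.6, 248 and 253 in the HGF libraries, a fall of 0.62 ± 0.11 on the log2 scale (adjusted p = 0.0069).

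Of the 10 ligands of the EGF receptor family tested, AREG and TGFA rose (20%, against 0.562% of all genes) and the other 8 did not pass. TGFA stood at 6492, 5559.6 and 5365 normalized read counts in the controls and at 9013, 6962 and 7899 in the HGF libraries. All HGF libraries were above all controls (log2 fold change 0.45 ± 0.067, adjusted p = 0.00248), and the gene stayed called without the libraries numbered 3 (0.40, adjusted p = 0.075). AREG, which encodes amphiregulin, rose by 0.41 ± 0.081 (adjusted p = 0.012) with overlapping groups. HBEGF lay at 0.38 ± 0.095 (adjusted p = 0.0449), under the minimum fold change.

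CSF3, PTGS2 and IL24 also rose. CSF3, which encodes the granulocyte growth factor G-CSF, stood at 2849, 2146 and 895 in the controls and at 4895, 3149.5 and 1623 in the HGF libraries. The groups overlapped, since the pairs started from different levels, and every pair rose (log2 fold change 0.73 ± 0.069, adjusted p = 0.000529). PTGS2, the inducible prostaglandin synthase COX-2, stood at 508, 447 and 421 against 866, 669 and 568, without overlap (0.60 ± 0.085, adjusted p = 0.00196). Both CSF3 and PTGS2 stayed called without the libraries numbered 3 (adjusted p = 0.027 for each). IL24, a cytokine of the IL-10 family, rose from 1625, 1374 and 794 to 2639, 1895 and 1753 (0.76 ± 0.13, adjusted p = 0.00516), and its call was lost without them (adjusted p = 0.114).

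Further rising genes, chosen after their values were seen, were IL11, HAS2 and HMGA2. HMGA2, a chromatin protein known from mesenchymal-like carcinoma cells, stood at 2566, 2071 and 1715 in the controls and at 3537, 2896 and 3162 in the HGF libraries, without overlap (log2 fold change 0.61 ± 0.10, adjusted p = 0.00444). IL11, a cytokine of the IL-6 family, rose by 0.44 ± 0.10 (adjusted p = 0.0308) and HAS2, a hyaluronan synthase, by 0.56 ± 0.13 (adjusted p = 0.028). The groups overlapped in IL11 and HAS2.

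Interferon-induced genes moved the other way. Of 63 genes of the interferon list tested, 14 fell, 1 rose and 48 did not pass, and 45 of the 63 were lower in all 3 HGF libraries than in the paired control, as were 25% of all genes tested. The median log2 fold change was -0.25, and the falling members are 22.2% of the list, against 1.41% of all genes. The rising member is 1.59% of the list, against 0.562% of all genes. Of the 14 falling genes, 8 had groups that did not overlap, as had 157 of the 218 falling genes over all genes tested. Without the libraries numbered 3, 6 of the 63 were called down, as were 50 of the 15475 genes tested. None of the 14 had a FaDu share over 10%. Promoters of 4 of them that hold a match to a searched motif are shown first, with the bases before the annotated start and the matches in capitals.

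CXCL10 (GRCh38.p14, chr4:76023498-76023747, minus strand): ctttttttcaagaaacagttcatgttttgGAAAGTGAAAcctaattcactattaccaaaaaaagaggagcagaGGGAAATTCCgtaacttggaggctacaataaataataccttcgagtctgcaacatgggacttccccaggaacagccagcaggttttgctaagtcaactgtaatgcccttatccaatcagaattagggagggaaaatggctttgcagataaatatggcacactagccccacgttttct
CXCL11 (GRCh38.p14, chr4:76036071-76036320, minus strand): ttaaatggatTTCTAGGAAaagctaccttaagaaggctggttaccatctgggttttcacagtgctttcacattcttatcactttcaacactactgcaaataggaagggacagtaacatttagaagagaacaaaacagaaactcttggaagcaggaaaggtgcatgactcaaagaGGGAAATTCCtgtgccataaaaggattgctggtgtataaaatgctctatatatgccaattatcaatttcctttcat
GBP1 (GRCh38.p14, chr1:89065209-89065458, minus strand): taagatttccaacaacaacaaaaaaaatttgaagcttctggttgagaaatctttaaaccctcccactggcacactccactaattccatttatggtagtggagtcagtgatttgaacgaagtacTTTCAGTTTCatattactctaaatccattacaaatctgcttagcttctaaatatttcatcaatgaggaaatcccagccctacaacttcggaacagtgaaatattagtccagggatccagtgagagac
GBP4 (GRCh38.p14, chr1:89198943-89199192, minus strand): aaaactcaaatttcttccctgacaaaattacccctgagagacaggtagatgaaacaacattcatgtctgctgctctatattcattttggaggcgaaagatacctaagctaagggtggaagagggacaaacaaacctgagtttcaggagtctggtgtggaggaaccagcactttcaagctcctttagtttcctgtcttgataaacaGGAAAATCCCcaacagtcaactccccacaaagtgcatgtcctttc

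The motifs searched on both strands were GAAANNGAAA for the interferon-stimulated response element, TTCNNNGAA for the STAT site GAS and GGGANNTTCC for NF-kB. Promoter entries from RefSeq matched 7 of the 14 falling interferon genes. CXCL10 and GBP1 held the response element, which 3.07% of 27303 promoters of the same length hold. CXCL11 held the GAS letters (6.78% of all promoters), and CXCL10, CXCL11 and GBP4 held the NF-kB letters (1.42%). In CXCL10 the response element lies at bases -221 to -212 and the NF-kB letters at -177 to -168 from the start. The matches are descriptions of letters in these windows, and binding was not measured. Entries for APOL1, APOL6, GBP2, GBP5, IDO1, IFIT2 and TRIM22 were not used here.

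The chemokines CXCL10 and CXCL11, ligands of CXCR3, a chemokine receptor found on T cells, fell. CXCL10 stood at 122, 131 and 164 normalized read counts in the controls and at 52.7, 61.6 and 61 in the HGF libraries, a log2 fold change of -1.24 ± 0.18 (adjusted p = 0.00314). CXCL11 stood at 2507, 2548 and 2408 against 1713, 1866 and 1525 (-0.55 ± 0.065, adjusted p = 0.00107). Neither gene's groups overlapped, and both stayed called without the libraries numbered 3 (adjusted p = 0.092 and 0.044). IDO1, the enzyme that degrades tryptophan, fell from 130.4, 142 and 198 to 65.2, 79.5 and 73.8, also without overlap (-1.09 ± 0.17, adjusted p = 0.00337). Its call was lost without the libraries numbered 3 (-0.91, adjusted p = 0.13).

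The guanylate-binding proteins GBP1, GBP2, GBP4 and GBP5, GTPases of cell-intrinsic immunity, fell. GBP1 stood at 537, 597 and 658 in the controls and at 359, 382 and 414 in the HGF libraries (log2 fold change -0.63 ± 0.10, adjusted p = 0.00462). GBP4 stood at 106, 142 and 202 against 50.8, 90 and 97.5 (-0.91 ± 0.14, adjusted p = 0.00314). In GBP1 and GBP4 every HGF library lay below every control. GBP2, which overlaps GBP7 on the same strand and may hold reads of it, fell by 0.91 ± 0.14 on the log2 scale (adjusted p = 0.00314), and GBP5 by 0.77 ± 0.23 (adjusted p = 0.0926). Apolipoproteins L are also interferon-induced. APOL6 stood at 1588, 1868 and 2227 against 1189, 1377 and 1316 (-0.54 ± 0.094, adjusted p = 0.00611), and APOL1 at 357, 475 and 526 against 246, 344 and 336 (-0.55 ± 0.075, adjusted p = 0.00171).

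The antiviral genes IFIT2, RSAD2, SAMD9L and TRIM22 and the ISG15-conjugating enzyme UBE2L6 fell by 0.43 to 0.70 on the log2 scale, and their groups overlapped. UBE2L6, for instance, stood at 612, 788 and 879 in the controls and at 430.3, 583 and 615 in the HGF libraries (adjusted p = 0.00917). IRF1, a transcription factor that drives many interferon genes, stood at 1940.2, 2006 and 2147 against 1516, 1694 and 1588 (-0.34 ± 0.053, adjusted p = 0.00314). Its groups did not overlap, and the difference was under the minimum fold change. CD274, which encodes the checkpoint ligand PD-L1, was the member that rose, from 382, 308 and 282 to 588, 334 and 468 (0.50 ± 0.15, adjusted p = 0.0929), with overlapping groups. Its neighbor PDCD1LG2, which encodes PD-L2, rose from 289.6, 217 and 217 to 438, 355 and 395 without overlap (0.72 ± 0.11, adjusted p = 0.00314).

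**Figure D3:**
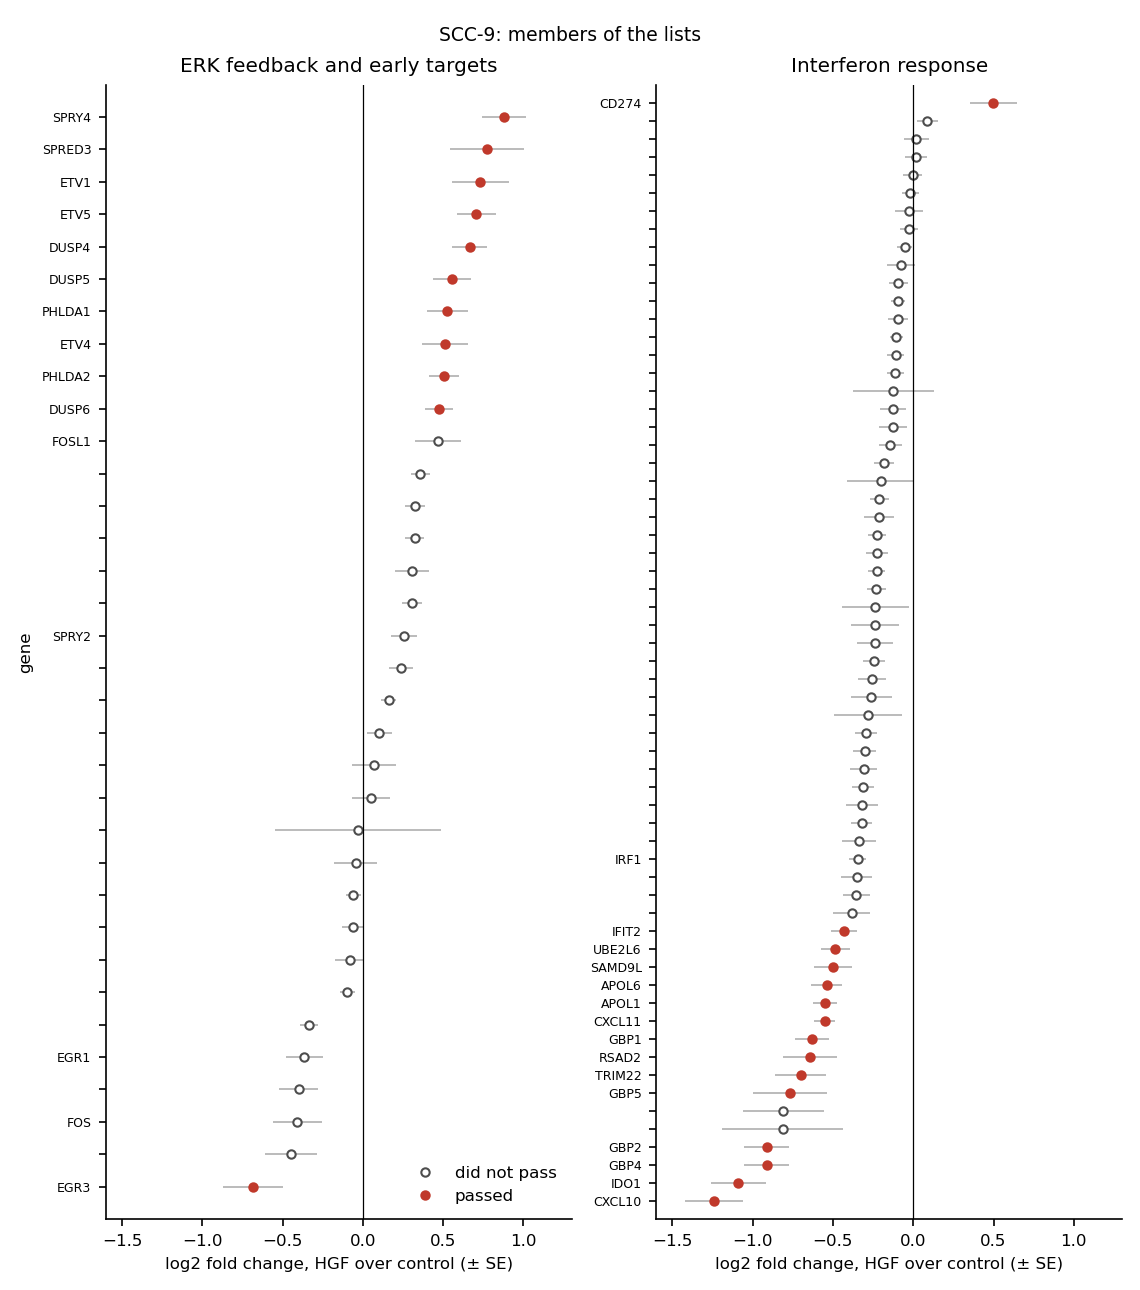
Log2 fold change (HGF over control, ± SE from the paired fit) of tested genes of the ERK list (left) and of the interferon list (right), with the genes described in the text labeled. Filled red points passed the test, 10 up and 1 down on the left and 1 up and 14 down on the right.

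In the list of NF-kB targets and feedback, 5 of 45 genes fell (11.1%, against 1.41% of all genes). The 2 that rose (4.44%, against 0.562% of all genes) were CSF3 and PTGS2, described above. TNFAIP2 fell from 1935, 2203 and 2485 normalized read counts to 1287, 1406 and 1317 (log2 fold change -0.72 ± 0.076, adjusted p = 0.000529), although the FaDu share was 19.4% of its reads in HGF library 3. With that share subtracted the fold change was -0.81. BIRC3, an inhibitor of apoptosis, fell from 4394, 3936 and 4716 to 3284, 2824 and 2578 (-0.59 ± 0.086, adjusted p = 0.00229). ZC3H12A, an RNase that degrades cytokine mRNA, fell from 3238, 3701 and 2924 to 2448, 2859.8 and 2009 (-0.44 ± 0.069, adjusted p = 0.00328). In TNFAIP2, BIRC3 and ZC3H12A the groups did not overlap.

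TNF itself fell from 165, 185 and 185 to 119, 107 and 119 (log2 fold change -0.63 ± 0.18, adjusted p = 0.0899). CFB, the complement factor B of the alternative pathway, fell from 2474, 3462 and 3869 to 1736, 2535 and 2585 (-0.51 ± 0.054, adjusted p = 0.000529). Its groups overlapped, and the gene shares reads with C2 and a read-through gene on the same strand. The CFB promoter is shown because it holds both interferon motifs, the response element at -140 to -131 and the GAS letters at -92 to -84.

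CFB (GRCh38.p14, chr6:31945845-31946094, plus strand): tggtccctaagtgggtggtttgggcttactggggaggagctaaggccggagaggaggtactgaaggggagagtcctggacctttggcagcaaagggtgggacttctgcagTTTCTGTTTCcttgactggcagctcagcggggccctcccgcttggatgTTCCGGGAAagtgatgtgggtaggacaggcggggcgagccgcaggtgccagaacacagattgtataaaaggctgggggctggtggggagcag

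The NF-kB letters searched are not in this window of any of the 5 falling NF-kB genes. Only the pattern GGGANNTTCC was searched, so other forms of the NF-kB site may be present. Of the whole list, 26 of 45 genes were lower in all 3 HGF libraries than in the paired control and 5 were higher, against 25% and 23.9% of all genes, with a median log2 fold change of -0.11. SOD2, the mitochondrial superoxide dismutase, stood at 6930.2, 6791 and 7143 against 5634, 5468 and 5413, a log2 fold change of -0.34 ± 0.047 (adjusted p = 0.00174) that stayed under the minimum. It overlaps another gene on its strand.

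Of 22 genes of antigen presentation by MHC class I tested, 21 were not called. PSMB9, a subunit of the immunoproteasome, was called down (4.55%, against 1.41% of all genes). It fell from 691, 651 and 698 to 453, 519.9 and 454 (log2 fold change -0.52 ± 0.092, adjusted p = 0.00681), without overlap, and lost its call without the libraries numbered 3 (adjusted p = 0.139). TAPBP, which loads peptide onto class I molecules, stood at 6554, 6677 and 7262 against 5513, 5379 and 5339.5 (-0.34 ± 0.052, adjusted p = 0.00326), under the minimum fold change. Of the 22 genes, 15 were lower and 0 higher in all 3 pairs (25% and 23.9% of all genes), and the median was -0.16.

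CD70, VTCN1, ICOSLG and TNFSF9, which encode ligands of the TNF and B7 families, fell, and the last 2 were chosen after their values were seen. CD274 and PDCD1LG2, B7 family members described above, went the other way (0.50 and 0.72). CD70, the ligand of CD27, fell from 88.2, 102 and 140.0 to 38.3, 56.8 and 69.9 (to a fitted 0.498 times the control level, adjusted p = 0.00522). ICOSLG fell from 145, 147 and 158 to 108, 97.5 and 94.5 (-0.58 ± 0.14, adjusted p = 0.0343), and TNFSF9, the ligand of 4-1BB, by 0.56 ± 0.16 on the log2 scale (adjusted p = 0.0905). The groups of CD70, ICOSLG and TNFSF9 did not overlap. VTCN1, the inhibitory B7 family member B7-H4, fell from 63.3, 85.8 and 173 to 25.9, 59.7 and 69.9 with overlapping groups (-1.03 ± 0.19, adjusted p = 0.00872). UBD, a ubiquitin-like modifier induced by interferon and TNF and also chosen afterwards, stood at 60.4, 51.5 and 85.8 against 20.1, 24.6 and 17.7 (-1.63 ± 0.27, adjusted p = 0.00992), and it overlaps GABBR1 on the same strand. KMO, an enzyme of the kynurenine pathway downstream of IDO1 chosen in the same way, stood at 15.3, 30.5 and 15.3 against 7.67, 7.58 and 8.86 (adjusted p = 0.091). None of the falling genes in this paragraph was called without the libraries numbered 3, with adjusted p between 0.106 for CD70 and 0.742 for TNFSF9.

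FBXO32 fell most among the genes with a mean of at least 50 normalized read counts. This ubiquitin ligase, a target of FOXO factors that AKT restrains, stood at 1066, 1433 and 2391 in the controls and at 469.6, 730.1 and 768 in the HGF libraries. The groups did not overlap. FBXO32 fell by 1.27 ± 0.15 on the log2 scale (adjusted p = 0.000634), and the call held without the libraries numbered 3 (-1.07, adjusted p = 0.027). BMF, a BH3-only protein that promotes apoptosis, fell from 96.9, 168 and 168 to 46, 82.4 and 82.7 (-1.03 ± 0.14, adjusted p = 0.00128). OLR1, the receptor of oxidized low-density lipoprotein, fell from 362, 432 and 574 to 205, 233 and 262 (-0.95 ± 0.11, adjusted p = 0.000634). Both BMF and OLR1 stayed called without the libraries numbered 3 (adjusted p = 0.033 and 0.027).

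The group of 12 with the greatest fall also held IP6K3, an inositol hexakisphosphate kinase, APOL3, CLIC3, RASSF10 and UBA7, the activating enzyme of ISG15. APOL3 stood at 71, 85.8 and 107 against 37.4, 40.7 and 49.2 (log2 fold change -1.05 ± 0.14, adjusted p = 0.00163) and passed without the libraries numbered 3 (adjusted p = 0.055). UBA7 stood at 58.5, 71.5 and 84.8 against 38.3, 38.8 and 31.5 (-0.97 ± 0.23, adjusted p = 0.0355) and did not pass without them (adjusted p = 0.44). RASSF10, a RAS-association domain protein, fell from 64.3, 64.8 and 98.1 to 24.9, 41.7 and 44.3 (-1.03 ± 0.24, adjusted p = 0.0269). IP6K3 fell by 1.21 ± 0.23 on the log2 scale (adjusted p = 0.0137) with overlapping groups, since its controls ran from 48 to 157.

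Of the inhibitors of DNA binding, which are targets of BMP signaling, ID2, ID3 and ID4 were called and fell, whereas ID1 was not called. These 3 were chosen after their values were seen. ID3 stood at 7274, 8883 and 11355 in the controls and at 5541, 7046 and 7894 in the HGF libraries (log2 fold change -0.42 ± 0.048, adjusted p = 0.000634). ID2 stood at 239, 316 and 568 against 117, 214 and 311 (-0.81 ± 0.096, adjusted p = 0.00065). ID4 fell by 0.82 ± 0.15 on the log2 scale (adjusted p = 0.0125). In all 3 genes the groups overlapped while each HGF library lay below its paired control, and without the libraries numbered 3 ID2 stayed called (adjusted p = 0.033), while ID3 (-0.36) was under the minimum fold change.

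Of 33 genes tested of the aryl hydrocarbon receptor and xenobiotic metabolism, 4 fell, 1 rose and 28 did not pass, with a median log2 fold change of -0.19. The falling members are 12.1% of the list and the rising member 3.03%, against 1.41% and 0.562% of all genes. The falling members include UGT1A1 and UGT1A6, which share reads, so the 12.1% counts their locus more than once. CYP1B1, a monooxygenase induced by that receptor, stood at 2166, 2737 and 3248 normalized read counts in the controls and at 1310, 1974 and 1807 in the HGF libraries (-0.68 ± 0.08, adjusted p = 0.000634). It stayed called without the libraries numbered 3 (-0.59, adjusted p = 0.033). CYP1A1 fell from 404, 502 and 511 to 228, 342 and 322 (-0.68 ± 0.12, adjusted p = 0.00791), and its call was lost there (adjusted p = 0.118). Neither gene's groups overlapped. The receptor gene AHR stood at 2493, 2627 and 3131 against 2154, 2237 and 2347 (-0.29 ± 0.053, adjusted p = 0.00791), under the minimum fold change.

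UGT1A1 and UGT1A6 encode glucuronidating enzymes from a shared locus whose reads were counted for every overlapping family member, so they are not separate measurements. UGT1A6 stood at 205, 272 and 308 in the controls and at 116, 164 and 164 in the HGF libraries (log2 fold change -0.82 ± 0.15, adjusted p = 0.00681). Its FaDu share was 30.8% of the reads in HGF library 3, and with that share subtracted the value was -0.98 (adjusted p = 0.0048). UGT1A1 fell by 0.87 ± 0.16 on the log2 scale (adjusted p = 0.00823). Both lost their call without the libraries numbered 3 (adjusted p = 0.111 for UGT1A6). The member that rose was MGST1, a microsomal glutathione transferase, with 5.75, 9.53 and 6.13 normalized read counts in the controls and 2.87, 1.89 and 136 in the HGF libraries. Without the libraries numbered 3 its value was -1.63 (adjusted p = 0.42), and the FaDu share was 77.3% of its reads in HGF library 3.

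Few genes of squamous differentiation moved. Of 40 tested, CLIC3, S100A7 and S100A8 fell (7.5%, against 1.41% of all genes), none rose, and the median log2 fold change was -0.04. CLIC3, an intracellular chloride channel protein, stood at 103, 146 and 225 against 59.4, 87.1 and 78.8, without overlap (-1.03 ± 0.19, adjusted p = 0.00814). S100A7 (psoriasin) fell from 1159.5, 1537 and 2008 to 691, 1202 and 1180.3 (-0.62 ± 0.10, adjusted p = 0.00394). S100A8, a subunit of calprotectin, fell by 0.42 ± 0.066 on the log2 scale (adjusted p = 0.00337). The groups of both S100 genes overlapped, and none of the 3 genes was called without the libraries numbered 3.

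None of 19 integrins and laminins was called. LAMA3, a laminin chain of the epithelial basement membrane, was at 60623, 53300 and 47437 normalized read counts in the controls and at 78508, 61457 and 64044 in the HGF libraries (log2 fold change 0.34 ± 0.079, adjusted p = 0.0309). ITGA6, a chain of the laminin receptor, was at 0.24 ± 0.051 (adjusted p = 0.0163). In both genes every HGF library lay above every control, and both passed the adjusted p but not the minimum fold change.

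In the list of 30 genes of matrix remodeling and invasion, MMP7 was the only one called (3.33% called down, against 1.41% of all genes). This epithelial metalloproteinase fell from 123, 163 and 369.9 to 65.2, 99.4 and 173 (log2 fold change -0.93 ± 0.11, adjusted p = 0.000634), and it passed without the libraries numbered 3 (-0.80, adjusted p = 0.035). NRP1, a co-receptor that also binds HGF, was at 0.35 ± 0.075 (adjusted p = 0.0201), the highest of 19 genes of HGF and MET signaling, none of which was called.

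Metabolic lists gave few calls. None of 26 genes of glycolysis and lactate export was called, and the median was 0.04. Of these 26, 15 were higher and 1 was lower in all 3 pairs, against 23.9% and 25% of all genes. HK2, the hexokinase of many carcinomas, stood at 3230.1, 3201 and 2852 against 3560.1, 3285 and 3304 (log2 fold change 0.13 ± 0.051, adjusted p = 0.217). The HGF libraries lay above the controls, by less than the minimum. LDHA, the lactate dehydrogenase subunit, was at 0.01 ± 0.057 (adjusted p = 0.98). None of 30 genes of cholesterol and fatty acid synthesis was called. Of these 30, 3 were higher and 20 lower in all 3 pairs, with a median of -0.07. Among 31 amino acid stress genes, SLC6A9, a glycine transporter, was the only one called (3.23% called down, against 1.41% of all genes). SLC6A9 fell from 1188, 1294 and 1190.5 to 846, 1007 and 851 (-0.44 ± 0.076, adjusted p = 0.00531), without overlap. It did not pass without the libraries numbered 3 (adjusted p = 0.11).

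ADH1B and ADH1C, alcohol dehydrogenases whose shared reads cannot be told apart, were at or below 1.97 normalized read counts in each library, and ADH7 at or below 0.953. Such levels rest on 0 to 2 reads. Among 20 glucocorticoid-responsive genes, ANGPTL4 rose and TSC22D3 (GILZ) fell (5% each, against 0.562% and 1.41% of all genes). TSC22D3 moved from 1968, 2147 and 2429 to 1490.2, 1757 and 1699 (log2 fold change -0.40 ± 0.076, adjusted p = 0.00917), at the edge of the minimum fold change. With the FaDu share subtracted, TSC22D3 lay just under that minimum. In the fibroblast growth factor system, 2 of 10 genes fell (20%, against 1.41% of all genes). FGFR3 fell from 391, 547 and 588 to 272, 436 and 399 (-0.47 ± 0.096, adjusted p = 0.0152) and FGFR2 by 0.55 ± 0.15 on the log2 scale (adjusted p = 0.0702). FGFR1 stood at 6.71, 10.5 and 13.3 against 20.1, 17 and 12.8 (adjusted p = 0.335). The FaDu shares of FGFR1, FGFR2 and FGFR3 were 10.3%, 14.0% and 11.2% of their reads in HGF library 3.

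None of 32 proliferation genes and none of 37 ribosome biogenesis genes was called, with medians of -0.04 and 0.10. Of the 32 proliferation genes, 5 were higher and 18 lower in all 3 pairs, against 23.9% and 25% of all genes. In the ribosome biogenesis list, 27 of 37 genes were higher in all 3 HGF libraries than in the paired control (23.9% of all genes) and 1 was lower, all within 0.17 on the log2 scale.

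**Figure D4:**
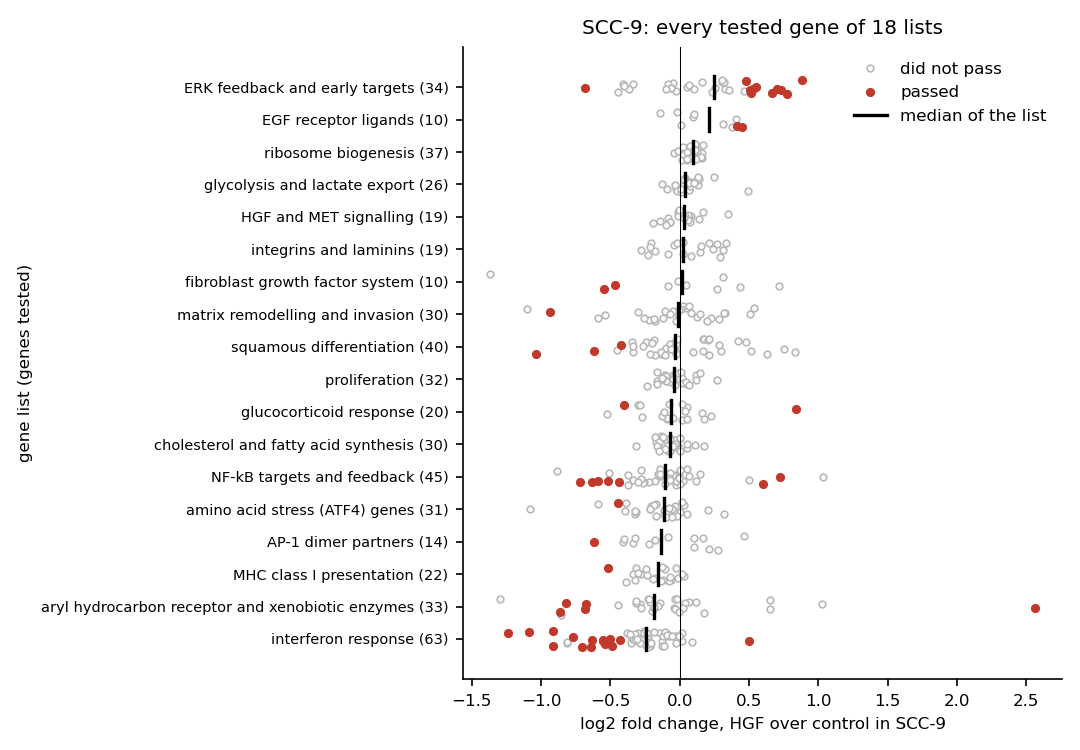
Log2 fold change in SCC-9 of every tested gene of 18 gene lists, with the number of genes tested in parentheses. Filled red points passed the test and black bars are list medians, which run from -0.25 for the interferon list to 0.25 for the ERK list. The point beyond 2.5 is MGST1, whose rise rests on HGF library 3.

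The response of SCC-9 was the smallest of the 3 lines in number of genes. By the same test 3327 genes (21.5%) were called in Detroit 562, a line from a pleural metastasis of a pharyngeal carcinoma, and 867 (5.6%) in FaDu. The 305 SCC-9 genes were chosen on SCC-9 values, so the following counts describe them. Of the 305, 275 had the same sign in Detroit 562 and 217 were called there in the same direction, which is 71.1% of the SCC-9 genes and 6.52% of the Detroit 562 calls. In FaDu 253 had the same sign and 132 were called in the same direction, 43.3% of the SCC-9 genes and 15.2% of the FaDu calls.

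The size of the response differed from Detroit 562 in 4170 genes (26.9%) and from FaDu in 204 genes (1.32%) by the interaction term. Among the 305, the difference from Detroit 562 passed in 133. Of these, 102 had the smaller response in SCC-9 and 31 the larger, and 9 of the 31 had a FaDu share over 10%. The difference from FaDu passed in 30, of which 27 had the larger response in SCC-9, and 8 of those 27 had a FaDu share over 10%. Line and medium cannot be told apart in these differences.

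Several ERK feedback genes rose less in SCC-9. Of the 11 called members of that list, the difference passed for 7 against Detroit 562 and for 2 against FaDu. SPRY4 rose by 0.88 on the log2 scale in SCC-9, 1.94 in Detroit 562 and 1.80 in FaDu, and the difference passed against Detroit 562 (adjusted p = 0.0045) but not against FaDu (adjusted p = 0.21). DUSP6 rose by 0.48, 1.52 and 1.42, with both differences passing (adjusted p = 0.00031 and 0.0058). PHLDA1 rose by 0.53, 1.57 and 1.58, again with both passing (adjusted p = 0.0017 and 0.026). Of the 34 genes of the list, 10 rose in SCC-9, 16 in Detroit 562 and 12 in FaDu, against 0.562%, 7.13% and 2% of all genes tested. The laminin receptor chain ITGA6 was at 0.24 in SCC-9, 0.69 in Detroit 562 and 0.54 in FaDu (adjusted p of the differences 0.00095 and 0.092).

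Of the 63 interferon genes, 14 were called down in SCC-9, 34 in Detroit 562 and 12 in FaDu, where 1.41%, 14.4% and 3.6% of all genes tested were called down. The fall in SCC-9 was smaller than in Detroit 562 for GBP4 (-0.91 against -2.32, adjusted p of the difference 0.00069), GBP2 (-0.91 against -2.14, adjusted p = 0.0016) and IRF1 (-0.34 against -1.01, adjusted p = 8.4e-05). In FaDu, GBP4 was at -0.55 and GBP2 at -0.76, and neither difference from SCC-9 passed (adjusted p = 0.54 and 0.90). IFIT2 was the only SCC-9 gene called in the opposite direction in FaDu, at -0.43 in SCC-9 and 0.45 in FaDu (adjusted p of the difference 0.0022).

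Some responses went further in SCC-9 than in at least 1 of the other lines. BIRC3 fell by 0.59 on the log2 scale in SCC-9 and was at 0.04 in Detroit 562, a difference that passed (adjusted p = 0.0036), and at -0.13 in FaDu, which did not (adjusted p = 0.25). SOD2 differed from both lines (-0.34 against -0.01 and 0.02, adjusted p = 0.0045 and 0.026). PTPRZ1 rose by 0.83 in SCC-9 and was at -0.18 in Detroit 562 (adjusted p of the difference 0.0023), but it rose by 0.82 in FaDu too. GRAMD1B rose by 0.89 in SCC-9 and was at -0.47 in FaDu (adjusted p of the difference 0.007). In Detroit 562 GRAMD1B was at 0.098, a difference from SCC-9 that did not pass (adjusted p = 0.36). Called in the opposite direction in Detroit 562 were 5 genes, APOBEC3G, DLX2, KREMEN2, SLFN11 and SORCS3, chosen for that after their values were seen. KREMEN2, a receptor of the WNT antagonist DKK1, fell by 0.48 in SCC-9 and rose by 0.48 in Detroit 562 (adjusted p of the difference 0.0052). APOBEC3G, a cytidine deaminase, rose by 0.54 in SCC-9 and fell by 0.83 in Detroit 562 (adjusted p of the difference 0.0003). SLFN11 stood at 3.84, 7.62 and 7.15 in the SCC-9 controls and at 2.87, 5.68 and 66.9 with HGF, and the FaDu share was 82.6% of the last value.

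**Figure D5:**
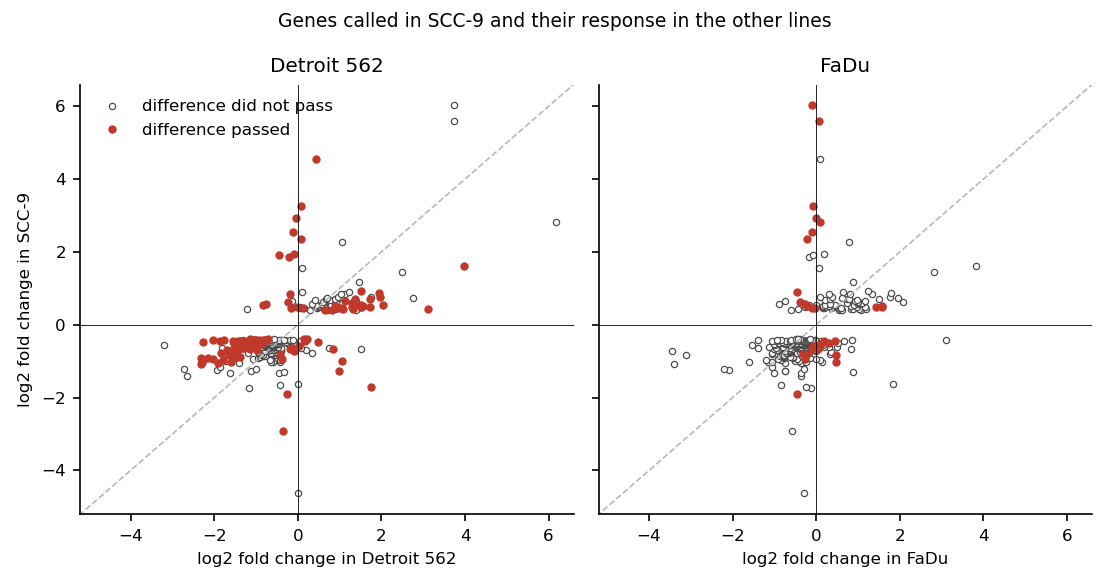
Log2 fold change in SCC-9 of the 305 genes called there (vertical axis) against that in Detroit 562 (left) and FaDu (right). Red points passed the test of the difference between lines (133 and 30 genes) and the dashed line marks equal response. The points above 2 near the vertical line in the FaDu panel include PRAME, LDOC1 and MGST1, which were high in HGF library 3 alone.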

How the data were processed

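mRNA sequencing was analyzed in 6 SCC-9 libraries, with 12 of Detroit 562 and FaDu in the same fit. The authors made stranded libraries (TruSeq, single-end, NextSeq 500), trimmed reads with Cutadapt, aligned them with STAR 2.5.2b to GRCh38.p12 with GENCODE annotation and counted reads with bedtools. The processing notes name bcl2fastq 2.20.0.422 and cutadapt 1.16. The deposited values are raw counts per protein-coding gene, whole numbers without normalization, counted over whole gene extents on 1 strand, so genes that overlap on a strand share reads (38 of the called genes).

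The software was DESeq2 1.42.0, edgeR 4.0.16, GenomicRanges 1.54.1 and limma 3.58.1 under R 4.3.3, with Python 3.11.15 for figures. Of 19901 genes, filterByExpr on the 6 groups left 15475. After TMM normalization, edgeR's quasi-likelihood test was fitted to all 18 libraries with a block term for each replicate number of each line, and the script was tested on simulated data. P-values were adjusted by Benjamini-Hochberg across the 15475 genes. Calls needed an adjusted p under 0.1 together with a change of 0.4 or more on the log2 scale, the thresholds of the study. Differences between lines used the adjusted p alone. SE is the log2 fold change divided by the square root of F. Fitted fold changes of genes with few counts depend on the prior count. The study's methods say that the experiment was repeated, so a number was taken as 1 repeat. Deviations from group means of same-numbered SCC-9 libraries correlated at 0.450, 0.295 and 0.357 over 13158 genes, and of others at -0.105 to -0.314. Within a group the deviations of a gene cancel out, so positive same-numbered values make the others negative on average.

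Genes high in another line had at least 20 CPM there and at least 100 times the SCC-9 control level. The excess of the FaDu set in HGF library 3 over the other libraries (1.49%) gave the FaDu share of each gene. Promoters are the 250 bases before the start in RefSeq (GRCh38.p14). Genes named were the 12 with the greatest rise and the 12 with the greatest fall among called genes moving alike in all 3 pairs at a mean of at least 50 normalized read counts, 13 genes of the study, and members of the gene lists. Some genes are not reported here. The comparison, lists and tests were chosen with earlier results of these data known. Alternatives were the pairing, normalization, filter, tool, samples, thresholds and FaDu subtraction.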

Additional observations from a re-analysis of the deposited data

Results flagged for a closer look

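The genes below had a response to HGF in SCC-9 that differed from that in another line by the interaction term of edgeR's quasi-likelihood test (adjusted over all genes). Values are the SCC-9 log2 fold change minus that of the other line, with 3 pairs of libraries in each line.

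A smaller fall in SCC-9 than in Detroit 562 gave positive differences for VTCN1 (1.268, adjusted p = 0.00267), CLIC3 (1.259, adjusted p = 0.0206), IDO1 (1.219, adjusted p = 0.0614), APOL3 (0.872, adjusted p = 0.0189), UBA7 (0.8167, adjusted p = 0.0641), FGFR3 (0.7138, adjusted p = 0.00127), SLC6A9 (0.6862, adjusted p = 9.66e-04), GBP1 (0.6443, adjusted p = 0.0231) and BMF (0.5527, adjusted p = 0.0345). ADH1B (3.954) and ADH1C (3.933) share reads and rest in SCC-9 on 1 or 2 reads per library. PTPRZ1 (1.013, adjusted p = 0.00234) rose in SCC-9 and not in Detroit 562, while it rose by 0.82 in FaDu.

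A smaller rise in SCC-9 gave negative differences for SPRY4 (-1.06, adjusted p = 0.00446) and NAV3 (-0.589, adjusted p = 0.0651). HK2 (-0.5255, adjusted p = 2.96e-04), LDHA (-0.4291, adjusted p = 0.00238) and MET (-0.2187, adjusted p = 0.0461) did not pass in SCC-9 and passed the adjusted p in Detroit 562. CD70 differed by -2.056 (adjusted p = 0.071), falling in SCC-9, while its 1.05 in Detroit 562 did not pass (adjusted p = 0.29).

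From FaDu, GRAMD1B differed by 1.354 (adjusted p = 0.00705), RASSF10 by -1.513 (adjusted p = 0.04) and OLR1 by -0.6875 (adjusted p = 0.0475). GRAMD1B rose and RASSF10 and OLR1 fell in SCC-9, and none of the 3 passed in FaDu.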

How the results depend on the processing

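The pairing mattered most. Without the replicate block, edgeR called 0 genes in SCC-9 (641 at an unadjusted p below 0.05), 143 differences from Detroit 562, 0 differences from FaDu and 0 of the 24 genes with the greatest changes. One block shared by the 3 lines gave 7, 803, 0 and 2, and DESeq2 with a fold change prior and no block 19, 650, 5 and 3. The SCC-9 libraries alone without the block gave 25 genes and 2 of the 24, and with the block 433 and 24. DESeq2 with the block called 223. Dropping the minimum fold change gave 818 calls, and the stricter pair of thresholds (0.05 and 1) gave 25. Leaving out each pair gave 64 to 253 genes, 2508 to 3025 differences from Detroit 562, 49 to 90 from FaDu and 10 to 22 of the 24, the lowest count of genes (64) without the libraries numbered 3. Beyond the smaller number of libraries, the cause was not tested. Other size factors, filters and the FaDu subtraction kept the count of SCC-9 genes at 298 to 333.

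Of 94 called genes named here, 0 stayed called without the block, 63 with DESeq2 and the block, 67 without the libraries numbered 1, 74 without those numbered 2, 24 of 91 without those numbered 3 and 85 after FaDu subtraction. Without the libraries numbered 3 the sign turned for MAGEA4, MGST1, SLFN11, SPG20, SYK, TFPI2 and, uncalled in either fit, LDHA. Over the 3 omissions MAGEA4 ran from -2.31 to 3.22, MGST1 from -1.63 to 3.44, SLFN11 from -0.41 to 2.60, SPG20 from -1.37 to 4.51, SYK from -1.47 to 2.92, TFPI2 from -1.76 to 2.86 and LDHA from -0.0083 to 0.024. SYK also turned after FaDu subtraction (-0.30). PRAME, LDOC1 and MAP9 had no counts left and got no value. At these totals, genes under 50 normalized read counts (42 of the 305 called) were measured least precisely.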
